A study of Mus musculus with 48 samples.

Results

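The genes described here are 10 markers of the colonic enteroendocrine cell: the hormone genes Gcg, Pyy, Insl5, Cck, Nts and Sst, the granule genes Chga and Chgb, the serotonin-synthesis gene Tph1 and the transcription factor gene Neurod1. They were chosen by symbol from a given list and are 10 of the 55401 genes counted, and all 10 passed the filter on low counts. Bulk RNA from colonic tissue of 48 male mice was sequenced, 1 library a mouse, to ask how loss of the clock gene Bmal1 (Arntl) in the intestinal epithelium changes the colon over the circadian day. Control mice were Bmal1fl/fl x Villin wt/wt and Bmal1IEC-/- mice were Bmal1fl/fl x Villin CRE/wt littermates, so both carried the floxed alleles, and the Villin promoter drives Cre in epithelial cells while neurons, muscle and immune cells keep the gene. All were on a C57BL/6J background, had chow ad libitum, were housed singly with a running wheel and were killed at 18 to 20 weeks of age on day 2 of constant darkness, at circadian time (CT) 1, 5, 9, 13, 17 or 21 h with 4 mice per genotype and time. The stretch of colon that was sampled is not given in the sources used here.

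Enteroendocrine cells are scattered single cells of the gut epithelium that sense the lumen and release peptide hormones or serotonin from dense-core granules. In the colon, L cells make glucagon-like peptides, peptide YY and insulin-like peptide 5, enterochromaffin cells make serotonin and D cells make somatostatin. They are renewed from crypt stem cells through a transcription factor cascade, and the release of several of their hormones follows the daily cycle of feeding.

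Total counts per mouse ran from 3144997 to 4785844. The Bmal1IEC-/- mice SV384 and SV385 at CT1 stood apart from all the others: the summed level of 10 epithelial markers was 87396 and 109654 normalised counts, above the range of 53523 to 82927 in the other 46 mice, and 6 smooth muscle markers summed to 3428 in SV385 against at least 12166 in the 46. The study's own normalised values leave both out, and so do the tests here. This leaves 24 control and 22 Bmal1IEC-/- mice, and values with all 48 mice are given beside the results they move most. Car1 made up most of the epithelial sum, with a control mean of 39792 ± 4651 (SD) beside a median control sum of 65878.5. The epithelial covariate used below sums the same 10 genes. Nr1d1, a direct target of BMAL1, was lower in Bmal1IEC-/- mice at 6 of 6 times (log2 fold change -1.49, SE 0.12, adjusted p = 2.15e-13). Arntl itself peaked at 260.0 ± 18.02 at CT1 and had its lowest mean, 26.4 ± 8.81, at CT9 in control mice, while the Bmal1IEC-/- means lay between 114 and 177. The counts cover the whole gene, so they do not measure the deleted part. The pancreas makes the hormones of Gcg and Sst too. Of 10 pancreas markers, 8 had at most 3 counts in each of the 46 mice. The others were Cpb1, at means of 2.20 ± 2.01 and 2.37 ± 1.41 (SD) in control and Bmal1IEC-/- mice, and Cela1. Cela1 stood at 176 ± 22.6 and 185 ± 19.1 in the same order. A part of pancreatic tissue in the Gcg and Sst levels was not tested.

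Chgb was the most abundant of the 10 genes and the one that differed most clearly between genotypes, at a higher level in Bmal1IEC-/- mice, and Nts was lower. Of the 10 genes, 2 were called between genotypes at an adjusted p under 0.05 (edgeR quasi-likelihood test, Benjamini-Hochberg over 15073 genes), beside 10.5% of all genes tested. Of these, 1 was higher, beside 4.83% of all genes, and 1 was lower, beside 5.72%, so with 10 genes the counts were near those of all genes. Neither change reached 1.5-fold. The median log2 fold change of the 10 was -0.03, beside 0.00 over all genes tested, with 5 positive and 5 negative.

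**Figure D1:**
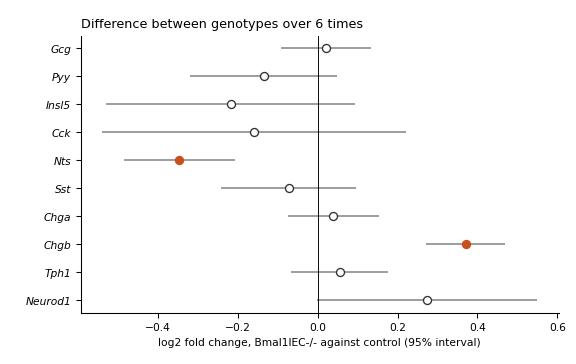
Log2 fold change of each of the 10 genes between 22 Bmal1IEC-/- and 24 control mice over 6 circadian times; points are edgeR estimates, bars are 95% intervals and filled points have an adjusted p under 0.05. Chgb lay at 0.37 and Nts at -0.35, and the intervals of the other 8 genes include 0.

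Levels of different genes were compared as CPM per kilobase of exon, CPM being counts scaled to the total of each library. Chgb, which encodes chromogranin B, a granule matrix protein, stood first in control mice at 223 ± 22.6 (SD, n = 24), with no overlap with the next gene. Chga, for chromogranin A, followed at 97.6 ± 13.3, and Gcg, for the glucagon precursor cleaved to the glucagon-like peptides, at 94.9 ± 15.1. These neighbours overlapped, Chga being above Gcg in 15 of 24 control mice and 14 of 22 Bmal1IEC-/- mice. Nts, for neurotensin, stood at 57.03 ± 10.5, Sst, for somatostatin, at 36.4 ± 6.43, and Pyy, for peptide YY, at 25.2 ± 6.59. Tph1, for the enzyme of the rate-limiting step in peripheral serotonin synthesis, stood at 23.4 ± 3.88. Pyy and Tph1 could not be ordered, as Pyy was the higher in 13 of 24 control mice and in 7 of 22 Bmal1IEC-/- mice. Their places depend on the annotated exon lengths, 631 bases for Pyy and 6172 for Tph1. Without division by length the control means were 61.3 ± 16.1 and 555 ± 94.4 normalised counts.
Insl5, for insulin-like peptide 5, stood at 4.77 ± 1.74, Cck, for cholecystokinin, at 1.79 ± 0.816 and Neurod1, for a factor of late enteroendocrine differentiation, at 1.68 ± 0.522. Cck and Neurod1 overlapped, Cck being the higher in 14 of 24 control mice. Most control mice held fewer than 20 normalised counts of Insl5, Cck and Neurod1, so single-mouse values of these 3 genes carry the largest counting error. Reads in more than 1 gene were not counted by the authors, and Neurod1 overlaps Cerkl and Gm26755 in the annotation, so its level is uncertain.

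**Figure D2:**
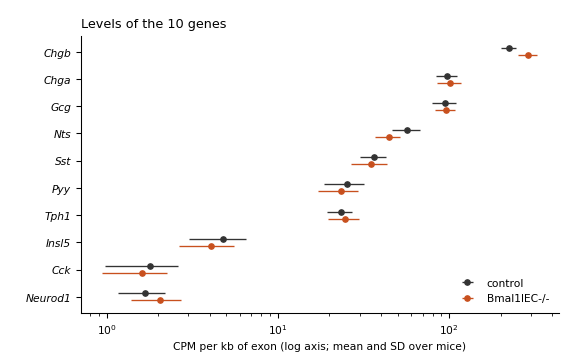
Levels of the 10 genes on a log axis in CPM per kilobase of exon, as the mean and SD over 24 control mice and 22 Bmal1IEC-/- mice. Control means ran from 223 for Chgb to 1.68 for Neurod1.

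The L-cell hormone Gcg (chr2:62474530-62483650 in mm10) ranged from 407 to 689, with a median of 545 normalised counts in control mice and from 404 to 729, with a median of 534 in Bmal1IEC-/- mice. The ranges overlapped almost completely, and the means were 546 ± 85.9 and 550.5 ± 76.9 (SD, n = 24 and 22), a difference smaller than the spread between mice (log2 fold change 0.02, SE 0.056, adjusted p = 0.879). Its 95% interval, -0.09 to 0.13 on the log2 scale, is the narrowest of the 6 hormone genes and corresponds to 0.938-fold to 1.10-fold. Pyy, which L cells release beside the glucagon-like peptides, ranged from 36.3 to 100.1, with a median of 57.2 in control mice and from 37.00 to 95.3, with a median of 55.02 in Bmal1IEC-/- mice, with no call (log2 fold change -0.14, SE 0.091, adjusted p = 0.392). The Bmal1IEC-/- mean of Pyy was the lower at 5 of 6 times, and with all 48 mice the log2 fold change was -0.05. Insl5, the third L-cell hormone, ranged from 5.21 to 23.7, with a median of 12.9 and from 3.91 to 20.1, with a median of 12.1 in the same order (log2 fold change -0.22, SE 0.16, adjusted p = 0.425). Its interval of -0.53 to 0.09 was among the widest of the 10 genes.

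Cck, the gallbladder-contracting hormone made mainly by small-intestinal I cells, ranged from 2.12 to 17.5, with a median of 9.18 normalised counts in control mice and from 2.02 to 13.8, with a median of 7.12 in Bmal1IEC-/- mice (log2 fold change -0.16, SE 0.19, adjusted p = 0.678). Sst, the inhibitory hormone of D cells that enteric neurons also make, ranged from 70.5 to 137, with a median of 102 and from 53.1 to 166, with a median of 97.7 in the same order. The ranges of both genes overlapped between genotypes, and Sst had no call (log2 fold change -0.07, SE 0.084, adjusted p = 0.664). With all 48 mice the log2 fold changes of Cck and Sst were -0.01 and 0.00, neither of them called, and with the levels of epithelial and enteric neuron markers as covariates that of Sst was 0.16, again not called.

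Nts (chr10:102481756-102490486 in mm10), a hormone of N cells that enteric neurons also make, was lower in Bmal1IEC-/- mice. Normalised counts of Nts in control mice were 299.6, 279.8, 362 and 209 at CT1, then 298, 304, 244 and 345 at CT5, then 326, 249, 328 and 220.5 at CT9. At the other times they were 272, 338, 185 and 218 at CT13, then 265, 235, 190.1 and 287 at CT17, then 291, 299.5, 308 and 223 at CT21. In Bmal1IEC-/- mice they were 307 and 276 at CT1, then 182, 224, 207 and 222 at CT5, then 196, 229.9, 198 and 204 at CT9. At the other times they were 204, 215, 235 and 197 at CT13, then 168, 227, 159 and 204 at CT17, then 270.3, 241, 184 and 158 at CT21. At CT5 to CT13 the Bmal1IEC-/- mice lay between 182 and 235, and the genotypes overlapped at every time but CT5. The means were 274 ± 50.2 and 214 ± 37.1 (SD, n = 24 and 22), 0.786-fold (95% interval 0.714 to 0.866; log2 fold change -0.35, SE 0.069, adjusted p = 3.39e-04). The Bmal1IEC-/- mean was the lower at 5 of 6 times, the exception being CT1, where 2 mice entered. SV384 and SV385 held 382 and 365, and with all 48 mice the log2 fold change was -0.29 (adjusted p = 0.00546).
In the marker list of enteric neurons all 10 genes had negative fold changes, beside 7560 of 15073 genes tested, and 2 were called, beside 10.5%. These were Vip (386 ± 74.1 against 290.0 ± 61.2 normalised counts, log2 fold change -0.41, adjusted p = 2.55e-04) and Ret. The summed list ranged from 699 to 1157 in control mice and from 526 to 909.5 in Bmal1IEC-/- mice. Other non-epithelial lists moved the same way, with negative fold changes in 4 of 4 glia, 6 of 6 smooth muscle, 6 of 6 fibroblast and 5 of 6 T and B cell genes. After removing group means, Nts had a Pearson r of -0.007 with the summed neuron list over 46 mice (permutation p = 0.964). With the levels of the epithelial and neuronal lists as covariates, a model chosen after the data were seen, the log2 fold change of Nts was -0.36 (adjusted p = 0.00653). The neuronal list was itself lower in Bmal1IEC-/- mice, at a median sum of 752 against 883 in control mice. The part of neurons in the Nts result was not tested. In bulk tissue, fewer cells of a type and less RNA per cell cannot be told apart.

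Chgb (chr2:132781278-132795079 in mm10) was higher in Bmal1IEC-/- mice at 6 of 6 times. Normalised counts of Chgb in control mice were 2309, 2112, 2003 and 2050.3 at CT1, then 2471, 2335, 2673 and 2271 at CT5, then 2227, 1833, 2243 and 2234 at CT9. At the other times they were 2559, 2511, 2357 and 2338 at CT13, then 2261, 2529.6, 2606 and 3056 at CT17, then 2511, 2439, 2194 and 2270.2 at CT21. In Bmal1IEC-/- mice they were 3171 and 3389.5 at CT1, then 2664, 2698, 3360.1 and 3711 at CT5, then 2169.7, 3608, 3168 and 2847 at CT9. At the other times they were 2873, 2621, 2664 and 3687 at CT13, then 2955, 2674, 3147 and 3270.5 at CT17, then 3050.0, 3658, 2892 and 2831 at CT21. At CT1, CT13 and CT21 every Bmal1IEC-/- mouse exceeded every control mouse, with only 2 Bmal1IEC-/- mice at CT1. At the other 3 times the groups overlapped, and 10 of 22 Bmal1IEC-/- mice lay above all 24 controls. The means were 2349.7 ± 250.2 and 3050.4 ± 408 (SD, n = 24 and 22), 1.29-fold (95% interval 1.21 to 1.39; log2 fold change 0.37, SE 0.049, adjusted p = 2.10e-07). Leaving out any single mouse kept the log2 fold change between 0.35 and 0.39. Of the 10 epithelial markers, 2 were called higher and 2 lower in Bmal1IEC-/- mice, beside 4.83% and 5.72% of all genes. Their fold changes were positive in 5 and negative in 5 (median log2 fold change 0.05). The largest change was that of Slc26a3 (906 ± 186 against 527 ± 153 normalised counts, log2 fold change -0.77, adjusted p = 1.09e-09). With the epithelial and neuronal marker levels as covariates the log2 fold change of Chgb was 0.29 (adjusted p = 0.00159).

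Chga ranged from 749 to 1250.3, with a median of 1067 normalised counts in control mice and from 792 to 1543, with a median of 1054 in Bmal1IEC-/- mice and was not called (log2 fold change 0.04, SE 0.056, adjusted p = 0.739), with a log2 fold change of 0.11 over all 48 mice. Its interval of -0.07 to 0.15 lies wholly below that of Chgb, 0.27 to 0.47, although the difference between these granins was not itself tested. Tph1 ranged from 379 to 865, with a median of 539.8 and from 352 to 835, with a median of 568 in the same order (log2 fold change 0.05, SE 0.060, adjusted p = 0.646), with the Bmal1IEC-/- mean the higher at 5 of 6 times. Neurod1 ranged from 6.37 to 28.2, with a median of 17.02 and from 8.44 to 36.1, with a median of 21.2 (log2 fold change 0.27, SE 0.14, adjusted p = 0.216). The lower bound of its interval, -0.0014, reached just below 0, and 4 of 22 Bmal1IEC-/- mice lay above every control mouse. The log2 fold change of Neurod1 was 0.13 with the epithelial and neuronal marker levels as covariates (edgeR adjusted p = 0.759). Over all 48 mice it was 0.32 (edgeR adjusted p = 0.115).

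**Figure D3:**
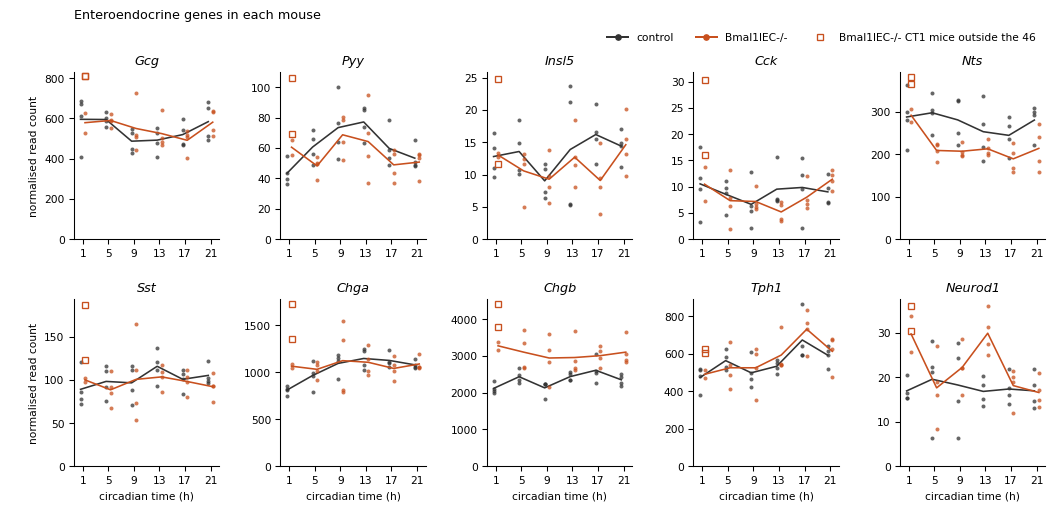
Normalised read counts of the 10 genes against circadian time in hours; each point is 1 mouse, lines join the means of the 46 mice used in the tests and open squares are SV384 and SV385. Chgb is higher in Bmal1IEC-/- mice at 6 of 6 times and Nts lower at 5 of 6, while the control courses of Pyy and Chga have their lowest mean at CT1 and their highest at CT13.

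Pyy and Chga followed the circadian day in control mice, with low levels at CT1 and high levels around the middle of the cycle. By JTK_cycle, an exact rank test against 24-h curves of 12 phases, 3 of the 10 genes were rhythmic in control mice at p under 0.05, beside 48.8% of the genes of the genotype test, and 2 of 10 in Bmal1IEC-/- mice, beside 28.5%. In neither genotype did the share exceed that of all genes. With Benjamini-Hochberg adjustment of JTK_cycle over all genes as well, Pyy (q = 0.012) and Chga (q = 0.0235) stayed called in control mice, and 0 genes in Bmal1IEC-/- mice. An edgeR F test of a 24-h cosine, adjusted over the genes kept, called Pyy, Chga and Gcg in control mice (adjusted p = 8.40e-04, 7.24e-04 and 0.033). In Bmal1IEC-/- mice it called Tph1 (adjusted p = 0.0348) and not Cck (adjusted p = 0.0953).

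Normalised counts of Pyy in control mice were 43.3, 39.4, 54.7 and 36.3 at CT1, then 71.9, 66.2, 55.9 and 48.7 at CT5, then 100.1, 53.04, 76.6 and 64.2 at CT9. At the other times they were 86.6, 85.1, 74.1 and 63.1 at CT13, then 58.6, 78.7, 53.2 and 48.5 at CT17, then 48.4, 50.9, 48.8 and 65.2 at CT21. The mean was 43.4 ± 8.03 at CT1 and 77.2 ± 10.96 at CT13 (SD, n = 4 each), with all 4 mice at CT13 above all 4 at CT1. The JTK_cycle peak was at 12 h (exact p = 0.00119), and a fitted cosine had an amplitude of 25.6% of its mean (SE 5.64). In Bmal1IEC-/- mice the group means of Pyy ran from 48.2 at CT5 to 68.8 at CT9, with no rhythm called (exact p = 1) and an amplitude of 14.1% of its mean (SE 7.89). A test of the difference in rhythm did not reach the threshold (adjusted p = 0.835).

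Normalised counts of Chga in control mice were 854, 826, 812 and 749 at CT1, then 1116, 988, 964 and 792 at CT5, then 1181, 923, 1123 and 1148 at CT9. At the other times they were 1250.3, 1228, 1081 and 1026 at CT13, then 1053, 1108, 1239 and 1101 at CT17, then 1139, 1081, 1053 and 1039.7 at CT21. All 4 mice at CT1 lay below all mice at CT9, CT13, CT17 and CT21, and the peak was at 14 h (exact p = 0.00296; amplitude 14.2% of its mean (SE 2.89)). The Bmal1IEC-/- means stayed between 1030.5 and 1123, with an amplitude of 2.30% of its mean (SE 5.17) and no rhythm called (exact p = 1). At CT1 the Bmal1IEC-/- mice, at 1044 and 1085, lay above all 4 controls. The difference in rhythm had the smallest p of the 10 genes and was not called (unadjusted p = 0.0896, adjusted p = 0.575). With all 48 mice 2 of the 10 genes had an unadjusted p under 0.05, and the smallest adjusted p, that of Chga, was 0.143. None of the 10 genes was called for a changed rhythm, beside 0.935% of all genes, and 0 had an unadjusted p under 0.05 (edgeR, F test on 2 degrees of freedom). By the DESeq2 likelihood ratio test 0 were called too.

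The Gcg rhythm of control mice was weak. Its mean was 596 ± 130.1 at CT1 and 487 ± 57.7 at CT9, the mice overlapped between these times, and the peak was at 0 h (exact p = 0.0423). Leaving out any of 15 of the 24 mice took the p above 0.05, up to 0.127 without SV468. In Bmal1IEC-/- mice the p was 0.132, and 0.0157 without SV450 and 0.0123 with all 24 mice.

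Tph1 was called rhythmic in Bmal1IEC-/- mice. The mean was 490.0 ± 30.03 at CT1 (SD, n = 2) and 731 ± 104 at CT17 (SD, n = 4), the lowest mouse at CT17 lay above both at CT1, and the peak was at 16 h (exact p = 0.0213). Control mice had the same order of means at these times, 473 ± 65.05 and 673 ± 130.0, with no call (exact p = 0.123), so the genotypes were not shown to differ (adjusted p of the change = 0.931). The Bmal1IEC-/- call was lost without SV399, SV437, SV439 or SV481, with p up to 0.0679, and one appeared in control mice without SV415 or SV447 (exact p = 0.0481 and 0.0234). Cck was called in Bmal1IEC-/- mice (exact p = 0.0213), at means of 5.18 ± 1.84 at CT13 and 11.4 ± 1.67 at CT21, and that call was lost without SV448, SV449 or SV479, with p up to 0.0808. With all 24 Bmal1IEC-/- mice 3 genes passed, Gcg, Cck (exact p = 0.0015) and Tph1 (exact p = 0.0358). The other 5 genes, Insl5, Nts, Sst, Chgb and Neurod1, were called in neither genotype, although Chgb in control mice passed without SV446 (exact p = 0.0481) and Neurod1 in Bmal1IEC-/- mice without SV479 (exact p = 0.0452).

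BMAL1 binds E-boxes, and the RefSeq promoters (GRCm38.p6, 250 bases before to 50 after the start; all 10 genes matched, with 13 promoters) were searched for 3 clock motifs on both strands. The E-box CACGTG was in 1 of the 13, that of Cck, beside 7.15% of all promoters. The ROR element was searched only by its core AGGTCA, without the bases before it, so a match need not be a full ROR element. This core was in 1, an alternative promoter of Tph1, beside 16.3%, and the D-box TTATGTAA was in 0, beside 0.938%. A further motif, the cAMP response element TGACGTNA, was searched after the promoters had been seen and was in 3, beside 2.93% of all promoters. It lies in the promoters of Chgb, Chga and Sst. Each is shown in lower case with the motif in capitals, on the strand of its gene. A match is a description of the letters and not evidence of binding.
Cck E-box (chr9:121495743-121495772, minus strand): gctgcctctgagCACGTGtcctgctggact
Tph1 ROR element (chr7:46667517-46667546, minus strand): acagcgactaagAGGTCAgggcaagctgct
Chgb cAMP response element (chr2:132781559-132781588, plus strand): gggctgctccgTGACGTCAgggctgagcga
Chga cAMP response element (chr12:102554886-102554915, plus strand): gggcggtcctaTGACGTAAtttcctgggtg
Sst cAMP response element (chr16:23890874-23890903, minus strand): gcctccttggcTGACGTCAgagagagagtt
Of the genes shown here, only Chgb was called between genotypes, and a link between the motifs and the calls was not tested.

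After removing the mean of each genotype and time, the 10 genes varied together only in part. Of 45 pairs, 1 passed a permutation test of Pearson r after Benjamini-Hochberg adjustment and 3 passed that of Spearman rho. Gcg and Cck passed both (Pearson r = 0.58, permutation p = 9e-05, adjusted 0.00405; Spearman rho = 0.65, permutation p = 3e-05, adjusted 0.00135; 46 mice). Without the 2 mice farthest from the median of Gcg, r was 0.51, and it was 0.65 within control mice and 0.48 within Bmal1IEC-/- mice. Chga and Chgb had the highest r, 0.59 (permutation p = 0.00282, adjusted 0.0518; Spearman rho = 0.53, permutation p = 0.00244, adjusted 0.0366), with 0.57 without the 2 farthest mice. Nts and Neurod1 also passed on rho alone (rho = 0.50, permutation p = 0.00178, adjusted 0.0366; r = 0.43, permutation p = 0.00404, adjusted 0.0518), with r = 0.45 without the 2 farthest mice. Across pairs r ran from -0.27 to 0.59 with a median of 0.16. The count of pairs passing on Pearson r depended on the prior count and the mice: it was 6 with a prior count of 0.5, 6 with all 48 mice and 0 in either genotype alone.
The gene whose residuals were most like those of Chga was Syngr2 (r = 0.79), before Jup (0.77) and Nucb1 (0.77), over 46 mice and 11849 genes. For Gcg these were Agr2 (0.72), B3gnt7 (0.65) and Ttyh1 (0.64), for Sst Akap8l (0.72), Cyba (0.69) and Lzts2 (0.67), and for Tph1 Vmp1 (0.71), R3hdm1 (0.71) and Ap3m1 (0.70). These values are a description, since the libraries share depth and tissue composition.
Of 40 relations between the genes and the summed levels of 4 marker lists, chosen after the data were seen, 1 passed the adjustment on Pearson r, Sst with the enteric neuron list (r = 0.60, permutation p = 0.0006, adjusted 0.024). Its Spearman rho was 0.51 (permutation p = 0.00182, adjusted 0.0728), and r was 0.46 without the 2 mice farthest from the median of that list.

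**Figure D4:**
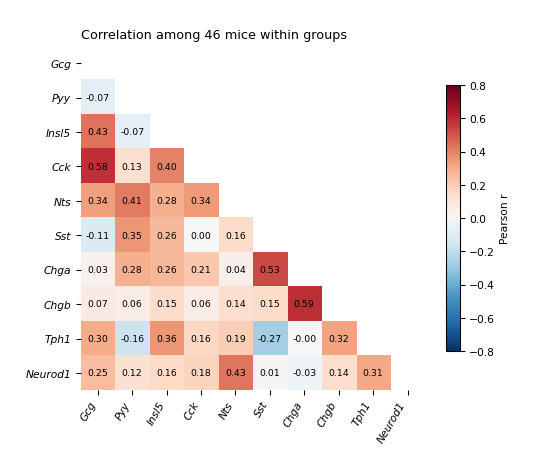
Pearson r of each pair of the 10 genes over 46 mice, computed on log2 CPM after removing group means; red is positive and blue negative. The highest value is 0.59 for Chga and Chgb and the lowest is -0.27 for Sst and Tph1.

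Other genes tied to enteroendocrine cells, to gut hormones or to the receptors of these hormones were read from 6 lists chosen by function. Not all of them are particular to enteroendocrine cells. Values are given as control against Bmal1IEC-/- means ± SD (n = 24 and 22). Counts of calls in the lists are to be read against the 10.5% of all genes called, 4.83% higher and 5.72% lower. Of 9 tested genes for other gut hormones, 1 was called higher and 2 lower, with a list median log2 fold change of -0.16. Iapp, for amylin, rose (35.1 ± 16.5 against 58.7 ± 24.5 normalised counts, log2 fold change 0.77, adjusted p = 8.80e-07), while Gal, for galanin, fell (90.4 ± 19.8 against 73.2 ± 15.6 normalised counts, log2 fold change -0.31, adjusted p = 0.0205) and Adm, for adrenomedullin, fell (14.3 ± 7.82 against 9.84 ± 4.94 normalised counts, log2 fold change -0.53, adjusted p = 0.0307). Enteric neurons also express Gal, and their markers had a median log2 fold change of -0.19 with 10 of 10 negative. Of 10 granin and hormone-processing genes, 1 was called higher and 1 lower (median -0.08). Pcsk1, the prohormone convertase that cuts the glucagon precursor in L cells, rose (274 ± 42.5 against 314 ± 40.1 normalised counts, log2 fold change 0.21, adjusted p = 0.00233), and the granin gene Scg2, which neurons express too, fell (164 ± 26.5 against 139 ± 13.6 normalised counts, log2 fold change -0.23, adjusted p = 0.00443). The part of the enteric neuron markers in the Gal and Scg2 results was not tested.
Of 9 genes of serotonin handling, 2 were called higher and 1 lower (median -0.01). Ddc, whose enzyme makes serotonin from the product of Tph1, rose (210.3 ± 31.2 against 292 ± 29.1 normalised counts, log2 fold change 0.48, adjusted p = 4.83e-10), as did Qdpr, which regenerates the cofactor of Tph1 (241 ± 23.03 against 268 ± 21.7 normalised counts, log2 fold change 0.15, adjusted p = 0.0076). Slc6a4, the serotonin transporter that takes serotonin up, fell (18.6 ± 5.66 against 11.9 ± 5.36 normalised counts, log2 fold change -0.68, adjusted p = 0.00103). Ddc and Qdpr are not particular to enteroendocrine cells. Tph1 itself had no call, with an interval of -0.07 to 0.18.

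Of 14 enteroendocrine transcription factors, 1 was called and rose, Insm1, which acts early in endocrine differentiation (15.6 ± 3.54 against 20.4 ± 5.97 normalised counts, log2 fold change 0.37, adjusted p = 0.029). Fold changes were positive in 11 of 14, beside 7513 of 15073 genes tested, and the list median was close to 0 (0.03). Of 12 sensors of nutrients and microbial products, 2 were called higher and 1 lower (median -0.11). Ffar2, a receptor for short-chain fatty acids, rose (116 ± 39.4 against 180.2 ± 21.7 normalised counts, log2 fold change 0.70, adjusted p = 1.32e-07), as did Ffar4, a receptor for long-chain fatty acids (155 ± 61.8 against 197 ± 36.1 normalised counts, log2 fold change 0.34, adjusted p = 0.0195), and Piezo2, a mechanosensitive channel of enterochromaffin cells, fell (46.2 ± 10.5 against 37.7 ± 7.67 normalised counts, log2 fold change -0.31, adjusted p = 0.0231). Of 12 hormone receptors tested, 3 were called lower and 0 higher, beside 5.72% and 4.83% of all genes (median -0.14). The somatostatin receptor gene Sstr2 fell (34.5 ± 12.6 against 24.9 ± 9.16 normalised counts, log2 fold change -0.50, adjusted p = 0.00229), as did the peptide YY receptor gene Npy1r (13.3 ± 4.39 against 9.08 ± 3.43 normalised counts, log2 fold change -0.52, adjusted p = 0.0163) and the glucagon-like peptide 2 receptor gene Glp2r (72.4 ± 13.8 against 61.99 ± 13.2 normalised counts, log2 fold change -0.23, adjusted p = 0.0387). Non-epithelial marker lists moved beside these receptors: all 6 smooth muscle genes had negative fold changes with 2 called lower, beside 5.72% of all genes. The median summed level of smooth muscle genes was 18181 in control and 15849.9 in Bmal1IEC-/- mice. The part of these lists in the receptor result, and in that of Piezo2, which is not particular to enterochromaffin cells, was not tested.

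**Figure D5:**
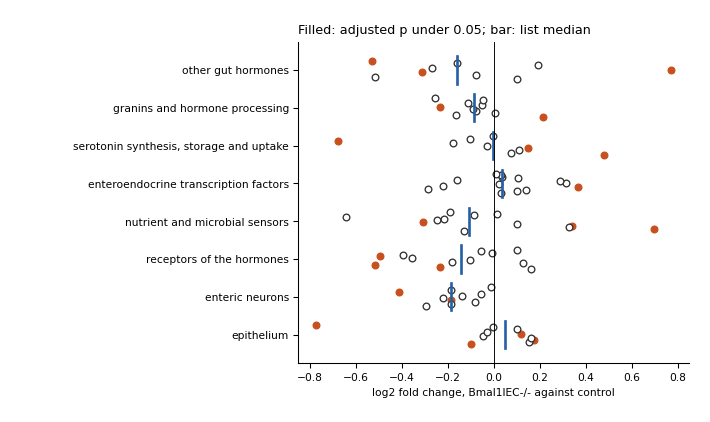
Log2 fold change between Bmal1IEC-/- and control mice of each tested gene in the 6 functional lists and in the enteric neuron and epithelium marker lists; filled points have an adjusted p under 0.05 and bars are list medians. All 10 enteric neuron genes lie below 0 and the hormone receptor calls are all lower.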

How the data were processed

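RNA from colonic tissue was made into TruSeq Stranded mRNA libraries and sequenced by the authors, 1 library a mouse in 48 mice, each with its own mouse number. The authors deposited whole-number read counts per gene; per the labels and the study's methods these came from Trimmomatic 0.39, STAR 2.7.5c against mm10 and featureCounts 1.4.6, which kept reads in an exon of 1 gene. The annotation and strand setting are not given in the sources used here. Of 55401 identifiers, 55141 matched GENCODE vM21. From these counts, edgeR 4.0.16 (TMM, filterByExpr with the 12 groups) was fitted over 46 mice with genotype and time, and intervals are 95% intervals of the fit. Normalised counts were divided by DESeq2 1.42.0 size factors set on the 46. JTK_cycle was rewritten with its exact null distribution and a Bonferroni factor of 6 for the 12 phases, whose opposite phases are mirror images. A changed rhythm was an F test of genotype by cosine and sine. Correlations used log2 CPM with a prior count of 2, less the mean of each genotype and time, with 100000 permutations within groups, two-sided. The scripts were tested on simulated data. Named genes were the 10 genes, Arntl, Nr1d1, up to 3 called genes of smallest adjusted p in each of 6 functional lists, and the 3 nearest genes of Gcg, Sst, Chga and Tph1. Vip, Ret, Slc26a3, Cela1 and Cpb1 were named after their values were seen. The genes and lists were chosen with earlier results of these data known. Mice of 1 group were separate animals. PCR duplicates were not marked, so counting error understates the error of a single library.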

Additional observations from a re-analysis of the deposited data

Results flagged for a closer look

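In 7 of the 120 groups of 4 mice examined, 1 mouse lay far from the other 3 by Dixon's criterion, where chance marks about 6. Pyy in control mice at CT21 was 65.2 normalised counts in mouse SV476, against 48.4 to 50.9 in the other 3 mice of its group. Pyy in Bmal1IEC-/- mice at CT21 was 38.1 normalised counts in mouse SV471, against 53.4 to 56.3 in the other 3 mice of its group. Insl5 in Bmal1IEC-/- mice at CT1 was 24.8 normalised counts in mouse SV384, against 11.7 to 13.4 in the other 3 mice of its group. Cck in control mice at CT13 was 15.7 normalised counts in mouse SV396, against 7.30 to 7.61 in the other 3 mice of its group. Chga in Bmal1IEC-/- mice at CT21 was 1193 normalised counts in mouse SV470, against 1049 to 1055 in the other 3 mice of its group. Chgb in control mice at CT9 was 1833 normalised counts in mouse SV412, against 2227 to 2243 in the other 3 mice of its group. Tph1 in Bmal1IEC-/- mice at CT13 was 742 normalised counts in mouse SV450, against 539.8 to 547 in the other 3 mice of its group.

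The pair of Bmal1IEC-/- mice at CT1 outside the 46, SV384 and SV385, both lay above all 4 control mice at CT1 in 8 of the 10 genes, beside 24.4% of all genes tested. Gcg was 810.0 in SV384 and 809.5 in SV385, against a control maximum of 689. For Pyy the values were 69.5 and 106, with 54.7 as the highest control mouse. Nts was 382 in SV384 and 365 in SV385, against a control maximum of 362. For Sst the values were 123 and 187, with 121 as the highest control mouse. Chga was 1356 in SV384 and 1728 in SV385, against a control maximum of 854. For Chgb the values were 3793 and 4421, with 2309 as the highest control mouse. Tph1 was 623 in SV384 and 606 in SV385, against a control maximum of 518. For Neurod1 the values were 35.97 and 30.4, with 20.6 as the highest control mouse. The epithelial marker sum of both mice lay above that of the 46, and the smooth muscle sum of SV385, but not of SV384, lay below it. Their part in these levels was not tested.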

How the results depend on the processing

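The 2 calls between genotypes, Chgb higher and Nts lower, held under the DESeq2 test, DESeq2 size factors, both other filters, all 48 mice, no time term, the marker covariates and without any single mouse (2 calls in every case). Requiring a fold change of 1.5 as well left 0. The fold change of Sst became 0.00057 with all 48 mice and 0.16 with the marker covariates, that of Tph1 became -0.037 with the marker covariates and that of Gcg became -0.0070 without replicate SV400 (range up to 0.039 over single mice), none of them called under any setting. In control mice the number of rhythmic genes was 2 to 4 when single mice were left out. In Bmal1IEC-/- mice it was 1 by the edgeR cosine test, 0 with Benjamini-Hochberg adjustment over all genes, 3 with all 24 mice and 1 to 3 without single mice. No gene was called for a changed rhythm under any alternative. The count of pairs correlated by Pearson r rose from 1 to 6 with all 48 mice and to 6 with a prior count of 0.5, and was 0 in control mice alone and 0 in Bmal1IEC-/- mice alone. The cause of these shifts was not tested. No paired analysis was possible because each mouse has its own number. Counts were lowest for Insl5, Cck and Neurod1.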
